A study of Mus musculus with 30 samples.

Results

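Gata6 encodes a zinc finger transcription factor of the GATA family. It is 1 of 50764 gene models counted in this mouse RNA sequencing series, and it was picked by its symbol rather than by its values. It was followed in all 30 libraries, which form 10 groups of 3. Sorted F4/80+ macrophages gave 18 libraries and sorted PDPN+ stromal cells gave 12. The gene has the identifier ENSMUSG00000005836 and lies on the plus strand of chromosome 18, from 11052064 to 11085635 in build GRCm38. It is annotated as protein coding with 6 transcripts, and reads were counted over the whole gene, so that its exons and untranslated parts were not measured apart.

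The PDPN+ groups came from the omentum by their labels and comprised cells with 1 uM BMS493, cells from co-culture with macrophages, cells from transwell culture and cells cultured alone. The macrophage groups comprised cells given all-trans retinoic acid (ATRA) at 1 uM, cells given BMS493 at 1 uM, cells from co-culture with PDPN+ cells, cells from transwell culture, cells cultured alone, and cells analysed ex vivo. In a transwell the cells share medium across a porous membrane without touching. ATRA activates the retinoic acid receptors and BMS493 is an inverse agonist of them. The labels do not state which cells shared the BMS493 wells, the length of culture, or the strain, age and sex of the mice. The published study names the macrophages large cavity macrophages of the peritoneum, and the label of the ex vivo group names a lavage. The series asks, by its title, how vitamin A acts on macrophages.

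In the peritoneal cavity Gata6 marks the large resident macrophages, whose transcript programme depends on it, and retinoic acid is known to induce it there. GATA factors bind DNA at short sites with a GATA core and work with cofactors of the FOG family. Outside macrophages Gata6 acts in heart, gut and mesothelium, the epithelium-like layer that lines the body cavities and covers the omentum.

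Total counts ran from 29350158 to 54099085 a library, and Gata6 itself had 101 to 3986 counts in macrophages and 871 to 7448 in PDPN+ cells. Each group has 1 library in each of 3 numbered batches, called batch 1, 2 and 3 here after the replicate number, and values are given in that order. Adgre1, the gene of F4/80 itself, ran from 1789 to 4851 CPM (counts scaled to the library total after TMM adjustment) in macrophage libraries and reached 67.1 CPM at most in PDPN+ libraries. Col1a1, a collagen chain of fibroblasts, lay between 726 and 14773 CPM in PDPN+ libraries and reached 293 CPM at most in macrophage libraries. For the co-culture pair of batch 1 the source names carry each other's cell type, and the titles, which fit these markers, were used. Fewer cells than 25000 were sorted for several libraries, down to 3730 and 2148 for the PDPN+ co-culture in batches 2 and 3. Nothing in the labels says that replicates came from separate animals, so p-values measure the spread between these libraries. In bulk RNA, fewer Gata6-expressing cells and less Gata6 RNA per cell cannot be told apart.

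**Figure D1:**
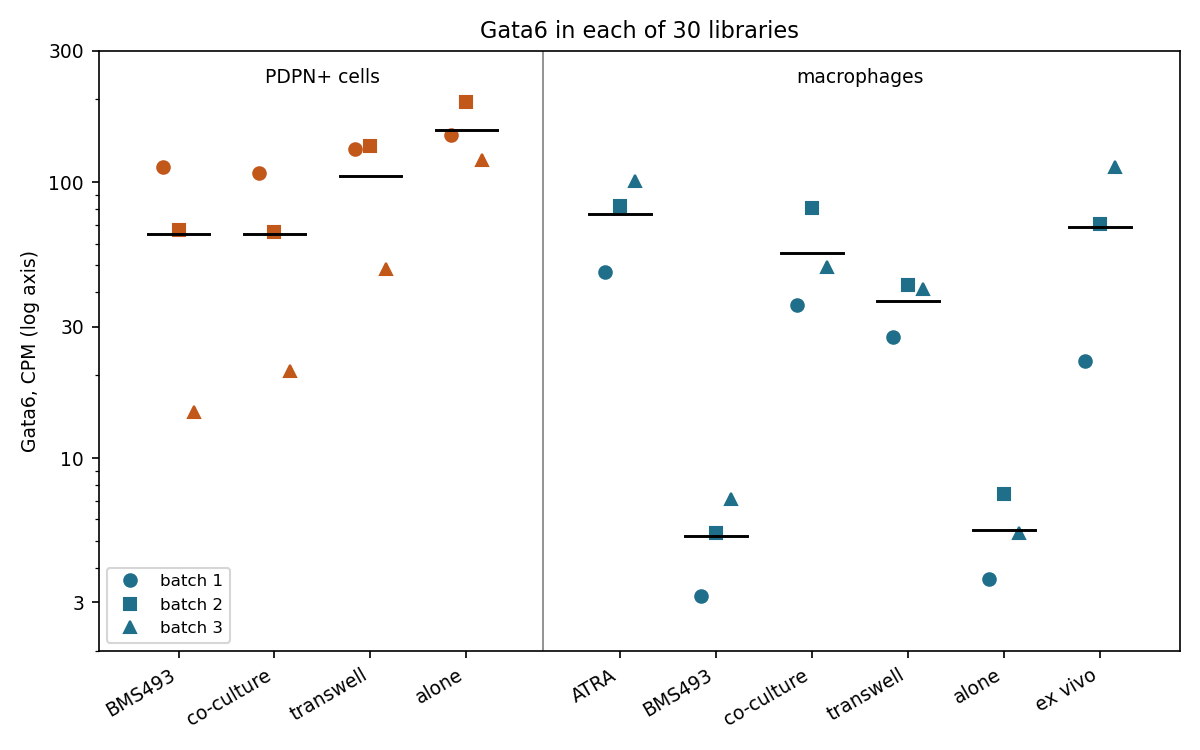
Gata6 level in CPM (log axis) in each library, by group, with a line at the mean of each group and the marker shape giving the batch. Macrophages with BMS493 and macrophages cultured alone lie at 7.41 CPM or less, and the other 24 libraries lie at 14.7 CPM or more.

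Across the 10 groups the mean Gata6 level was highest in PDPN+ cells cultured alone and lowest in macrophages with BMS493. PDPN+ cells cultured alone had 148, 196 and 120 CPM in batches 1, 2 and 3 (155 ± 38.3, SD, n = 3). PDPN+ cells from transwell culture had 132, 135 and 48.7 CPM (105 ± 49.2). Macrophages with ATRA had 47.1, 82.3 and 101 CPM (77.0 ± 27.6). PDPN+ transwell libraries overlapped with both other groups, whereas the 3 PDPN+ libraries cultured alone lay above the 3 ATRA libraries. Ex vivo macrophages had 22.5, 70.8 and 114 CPM (69.0 ± 45.6), the widest spread of any macrophage group. PDPN+ cells with BMS493 had 114, 67.2 and 14.7 CPM (65.2 ± 49.6). PDPN+ cells from co-culture had 108, 66.0 and 20.8 CPM (65.0 ± 43.7), which is the same order of batches at nearly the same levels. Co-culture macrophages followed with 35.9, 80.9 and 49.2 CPM (55.3 ± 23.1). Transwell macrophages had 27.6, 42.3 and 41.1 CPM (37.0 ± 8.18). A gap then separated these 8 groups from the last pair. Macrophages cultured alone had 3.64, 7.41 and 5.35 CPM (5.47 ± 1.89), and macrophages with BMS493 had 3.16, 5.37 and 7.08 CPM (5.20 ± 1.97). Each neighbouring pair in this order overlapped between its libraries, except transwell macrophages and macrophages alone.

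On the per-length scale of the deposited size-factor-adjusted RPKM, Gata6 averaged 49.2 ± 11.6 RPKM in PDPN+ cells alone, where it was the 1485th highest gene by mean. In macrophages it averaged 24.2 ± 8.35 RPKM with ATRA (rank 2712), 1.75 ± 0.614 RPKM alone (rank 9687) and 21.9 ± 14.2 RPKM ex vivo (rank 2819). By rank Gata6 stood far lower in macrophages cultured alone than in the other 3 groups.

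The batch with the lowest Gata6 differed between the 2 cell types. In macrophages the batch 1 library was the lowest of its group in 6 of 6 groups. In PDPN+ cells the batch 3 library was the lowest in 4 of 4 groups. Batch means of Gata6 were 23.3, 48.2 and 53.0 CPM in macrophages and 126, 116 and 51.1 CPM in PDPN+ cells, for batches 1, 2 and 3. In edgeR fits with group and batch, the Gata6 batch term had an adjusted p of 0.0127 in macrophages and 0.229 in PDPN+ cells. That term was under 0.05 for 14.7% of genes in macrophages and 0% in PDPN+ cells.

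Gata6 fell in macrophages cultured alone, to 5.47 ± 1.89 CPM, against 69.0 ± 45.6 CPM in ex vivo macrophages. Every library cultured alone lay below every ex vivo library. The log2 fold change was -3.64 (SE 0.53, 95% interval -4.78 to -2.50, adjusted p = 0.000305, edgeR quasi-likelihood test adjusted by Benjamini-Hochberg over all genes), a 12.4-fold difference. Calls here and below are those with an adjusted p under 0.05, and culture alone changed many genes: 17.8% of the 17774 genes tested were called. Within batches 1, 2 and 3 the log2 ratio was -2.63, -3.25 and -4.41.

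The loss of Gata6 stood beside losses in genes of the cavity macrophage programme. Of 30 listed genes, 17 fell and 0 rose in macrophages alone against ex vivo, with a median log2 fold change of -3.12 over the list and 0.08 over all genes. The list was put together with earlier results of these libraries known and is not independent evidence of its direction. F5, which encodes coagulation factor V, had 20.6, 10.1 and 22.0 CPM alone, against 1120, 1067 and 1314 CPM ex vivo. Selp, the P-selectin gene, had 12.4, 9.81 and 15.3 CPM alone, against 1087, 998 and 1066 CPM ex vivo. For both genes the groups were far apart and the ex vivo libraries lay close together, whereas the ex vivo Gata6 values ran from 22.5 to 114 CPM. Summed markers of monocytes and small macrophages (11 genes) lay at 154 to 388 CPM in macrophages alone, against 717 to 1277 CPM ex vivo, and their part in the result was not tested. Of the 16 other transcription factor genes of resident macrophages that were listed, 4 rose and 3 fell. Klf2 and Klf4, both zinc finger factors, were among those that fell (log2 fold changes -4.60 and -2.13, adjusted p = 0.00332 and 0.0404, edgeR), and the third was Bhlhe40 (-1.40). Spic, a factor of red pulp macrophages, was among those that rose (log2 fold change 4.21, adjusted p = 0.00494, edgeR).

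ATRA raised Gata6 in cultured macrophages to the ex vivo range. Gata6 averaged 77.0 ± 27.6 CPM with ATRA and 5.47 ± 1.89 CPM in macrophages alone, and the lowest ATRA library stood above the highest library cultured alone. The log2 fold change was 3.77 (SE 0.54, 95% interval 2.62 to 4.92, adjusted p = 0.0051, edgeR), or 13.7-fold. Only 0.326% of genes were called in this comparison, and Gata6 ranked 15th of 17774 by p. The log2 ratios within batches were 3.69, 3.47 and 4.25. With only the 6 libraries of both groups in the fit, the adjusted p was 0.0808 at a log2 fold change of 3.75, which ends the call. With the batch number as a block in the fit of all macrophage libraries, it was 0.000216 at 3.76 (edgeR).

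Against ex vivo macrophages the ATRA group gave a log2 fold change of 0.14 with a 95% interval of -0.89 to 1.16 (adjusted p = 0.904, edgeR). The interval leaves room for Gata6 levels about 2-fold apart in either direction, and 14.9% of genes were called between these groups. The sign turned with library totals in place of TMM scaling (-0.23).

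Other genes of the retinoic acid response moved in the same comparison of ATRA with culture alone. Of 14 listed and tested genes, 3 rose and 0 fell. Rarb, a retinoic acid receptor gene that its own ligand induces, had 13.0, 25.7 and 32.7 CPM with ATRA, against 0.867, 1.04 and 2.82 CPM alone (log2 fold change 3.90, SE 0.47, adjusted p = 0.00206, edgeR). Nrip1, a nuclear receptor corepressor gene, had 236, 330 and 182 CPM with ATRA, against 47.9, 29.7 and 32.6 CPM alone (log2 fold change 2.74). Cyp26a1, whose enzyme breaks down retinoic acid, had 204, 380 and 86.7 CPM with ATRA and no count in any of the 3 libraries cultured alone. Cyp26a1 in ATRA libraries also lay above the ex vivo values of 17.5, 32.8 and 35.1 CPM, whereas Gata6 overlapped between those groups. Of the cavity programme list 4 genes rose and 0 fell with ATRA, namely Selp, F5, Rarb and Cyp26a1 (median log2 fold change 1.49 over the list, -0.01 over all genes). Of the list of resident macrophage factors, 0 of 16 were called.

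Gata6 also rose in macrophages co-cultured with PDPN+ cells. After co-culture Gata6 averaged 55.3 ± 23.1 CPM, against 5.47 ± 1.89 CPM in macrophages alone, with no overlap. The log2 fold change was 3.28 (SE 0.53, 95% interval 2.16 to 4.40, adjusted p = 0.0127, edgeR), or 9.71-fold, and 0.698% of genes were called. Within batches the log2 ratios lay close together at 3.30, 3.45 and 3.20. The adjusted p passed 0.05 when macrophages alone replicate 1 (0.057), macrophages alone replicate 2 (0.0679) or co-culture replicate 2 (0.0515) was left out, and with only the libraries of both groups in the fit (0.0708), at log2 fold changes of 2.91 to 3.61. With the batch as a block the adjusted p was 0.000602 at 3.28 (edgeR).

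Stromal transcripts were present in these macrophage libraries, and PDPN+ cells express Gata6 themselves. Of 16 fibroblast genes, 5 rose in co-culture macrophages against macrophages alone, and 10 with the batch as a block (median log2 fold change 4.50, against -0.03 over all genes). Their excess over macrophages alone was 3.79%, 1.68% and 1.01% of the level in the PDPN+ library of the same batch (median over the list). At these shares the partner PDPN+ libraries would give 4.10, 1.11 and 0.211 CPM of Gata6, which is 11.4%, 1.37% and 0.428% of the Gata6 measured in the 3 co-culture macrophage libraries. Mesothelial genes summed to 26.5 to 330 CPM in co-culture macrophages, against 1.56 to 224 CPM in macrophages alone. Most of those highest sums is Pdpn itself. Msln, Upk3b, Lrrn4 and 6 other genes of the list were at 0 in the batch 3 co-culture macrophage library. Its partner PDPN+ library had only 0.0714 CPM of Upk3b and 0.762 CPM of Upk1b, so these zeros say little about mesothelial transcripts. The shares above rest on fibroblast genes and need not hold for Gata6. The part of stromal transcripts in macrophage Gata6 was not tested.

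**Figure D2:**
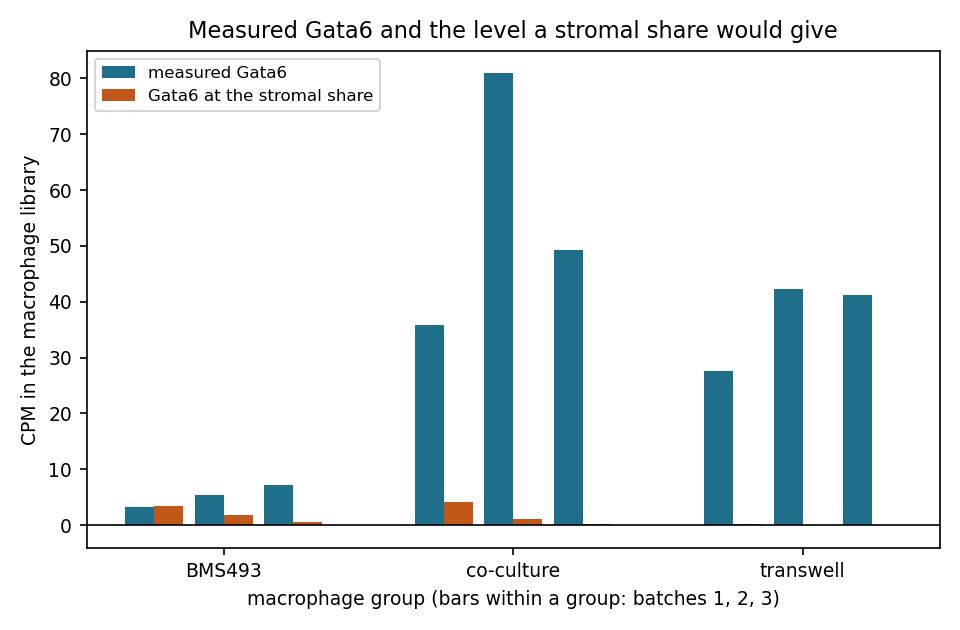
Gata6 measured in each macrophage library of the BMS493, co-culture and transwell groups, beside the Gata6 level that the stromal share in that library would give (both in CPM; 1 pair of bars for each batch). The stromal share gives at most 4.10 CPM, in co-culture macrophages of batch 1, where 35.9 CPM was measured. In BMS493 macrophages of batch 1 it gives 3.34 CPM, and 3.16 CPM was measured. The share comes from fibroblast genes and need not hold for Gata6, and the part of stromal transcripts was not tested.

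Transwell macrophages also had more Gata6 than macrophages alone, but neither Gata6 nor any listed fibroblast gene was called. Gata6 averaged 37.0 ± 8.18 CPM in transwell macrophages and 5.47 ± 1.89 CPM in macrophages alone, and the groups did not overlap. The log2 fold change was 2.71 (SE 0.51, 95% interval 1.61 to 3.81, unadjusted p = 9.63e-05), but the adjusted p was 0.107 in edgeR, so Gata6 was not called. Only 5 genes, or 0.0281%, were called. With the batch number as a block, which pairs libraries by label, the log2 fold change was 2.74 and the adjusted p 0.0059 (edgeR), and DESeq2 gave 2.72 and an adjusted p of 6.76e-05. All 3 batches had higher Gata6 in transwell macrophages, with log2 ratios of 2.92, 2.51 and 2.94.

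In transwell macrophages 0 of 16 fibroblast genes were called against macrophages alone. With only 0.0281% of all genes called, that count says little about stromal transcripts. Their median excess was 0.107%, -0.030% and -0.016% of the PDPN+ level, which would give at most 0.141 CPM of Gata6. Summed without Fn1, which macrophages express strongly, the fibroblast genes reached 31.8 to 165 CPM in transwell macrophages, against 10.0 to 109 CPM in macrophages alone. Sums of mast cell genes lay at 4.02 to 96.3 CPM in transwell macrophages, against 1.11 to 8.43 CPM in macrophages alone, and their part in the result was not tested. In the programme list 2 genes rose, Selp and Rarb. Selp had 569, 298 and 239 CPM in transwell macrophages, against 12.4, 9.81 and 15.3 CPM in macrophages alone (log2 fold change 4.85, adjusted p = 0.000186, edgeR). Rarb had 14.4, 10.5 and 19.8 CPM in transwell macrophages (log2 fold change 3.22, adjusted p = 0.0373, edgeR).

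Contact with PDPN+ cells did not set Gata6 apart from transwell culture beyond the spread. Co-culture over transwell macrophages gave a log2 fold change of 0.57 (95% interval -0.46 to 1.60, adjusted p = 1, edgeR), with overlapping libraries and 0.0394% of genes called. Co-culture lay above transwell in 3 of 3 batches, by log2 ratios of 0.38, 0.94 and 0.26. Co-culture over ATRA gave -0.49 (95% interval -1.52 to 0.53, adjusted p = 0.952, edgeR; 0.0563% of genes called). Transwell over ATRA gave -1.06 (95% interval -2.10 to -0.03, unadjusted p = 0.0449, adjusted p = 0.841, edgeR), and here the 3 transwell libraries lay below the 3 ATRA libraries. In that comparison edgeR called 0 genes (0%), 1042 genes had an unadjusted p under 0.05 and DESeq2 called 85.

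Against ex vivo macrophages, co-culture gave a log2 fold change of -0.36 (95% interval -1.38 to 0.67, adjusted p = 0.677; 14.9% of genes called), and transwell culture gave -0.93 (95% interval -1.96 to 0.11, adjusted p = 0.236; 12.9% called), both in edgeR. Gata6 in co-culture over ex vivo macrophages had log2 ratios of 0.67, 0.19 and -1.21 in batches 1, 2 and 3, so that the batches went both ways. Without batch 3 the value turned to 0.23.

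**Figure D3:**
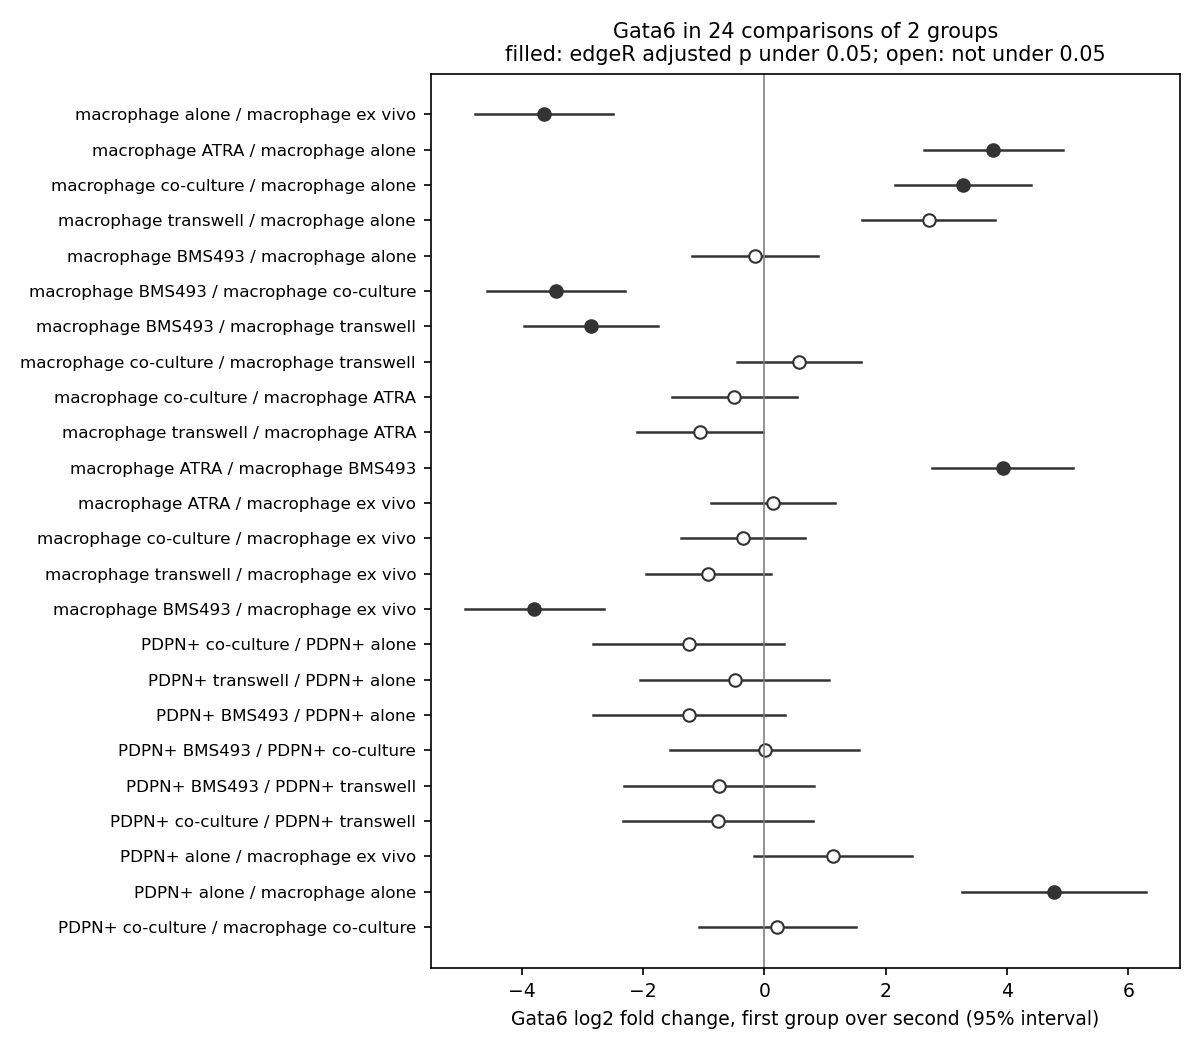
Log2 fold change of Gata6, first group over second, with its 95% interval from the edgeR fit, for 24 comparisons. Filled points have an adjusted p under 0.05: macrophages alone and with BMS493 lie far below ex vivo, ATRA and co-culture lie far above macrophages alone, and every interval within PDPN+ cells includes 0.

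Gata6 was low in macrophages with BMS493. It averaged 5.20 ± 1.97 CPM with BMS493 and 55.3 ± 23.1 CPM in co-culture macrophages, with no overlap. The log2 fold change was -3.43 (SE 0.53, 95% interval -4.57 to -2.30, adjusted p = 0.00569, edgeR; 0.85% of genes called), or 10.8-fold, and ratios were below 0 in 3 of 3 batches (-3.50, -3.91 and -2.80). Leaving out BMS493 replicate 1 or 2 gave adjusted p of 0.0507 and 0.0515, and the batch as a block gave 0.000137 (edgeR). Against transwell macrophages the log2 fold change was -2.87 (SE 0.52, adjusted p = 0.0143, edgeR; 1.29% of genes called). That call was lost without BMS493 replicate 1 (adjusted p = 0.0773), BMS493 replicate 2 (0.0848) or transwell replicate 2 (0.0569). It was kept with the batch as a block (adjusted p = 0.000394, edgeR).

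Against macrophages alone, BMS493 gave a log2 fold change of -0.16 with a 95% interval of -1.20 to 0.89 (adjusted p = 0.913, edgeR; 0.737% of genes called), and the libraries overlapped. BMS493 macrophages carried a stromal signal: 6 of 16 fibroblast genes rose against macrophages alone, 10 with the batch as a block, and the median excess was 2.93%, 2.69% and 3.38% of the PDPN+ level. It lay within the 1.01% to 3.79% of co-culture macrophages, whose Gata6 was 35.9 to 80.9 CPM. At these shares PDPN+ cells would give 3.34, 1.81 and 0.496 CPM of Gata6, or 106%, 33.7% and 7.01% of the Gata6 measured with BMS493. The part of stromal transcripts in the Gata6 of either group was not tested. Against ATRA, where ATRA is the first group, the log2 fold change was 3.93 (SE 0.54, adjusted p = 0.00112, edgeR; 4.01% of genes called), the largest Gata6 difference among the 15 macrophage comparisons, and its batches gave 3.90, 3.94 and 3.84. Against ex vivo macrophages BMS493 gave -3.79 (SE 0.54, adjusted p = 0.000204, edgeR; 21.3% of genes called).

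Between BMS493 and co-culture macrophages, 9 of 30 programme genes fell and 0 rose, with 14 falling when the batch was a block (median log2 fold change -2.18, against 0.01 over all genes). Of 14 retinoic acid response genes, 4 fell and 0 rose. Selp had 3.35, 1.94 and 2.20 CPM with BMS493, against 311, 484 and 275 CPM in co-culture macrophages (log2 fold change -7.17, adjusted p = 4.06e-06, edgeR). Selp and the chemokine gene Cxcl13 also fell below macrophages alone (log2 fold changes -2.39 and -5.85, adjusted p = 0.0119 and 0.0357, edgeR), whereas Gata6 in these libraries overlapped with macrophages alone. Rarb had 0.313, 0.742 and 0.480 CPM with BMS493, against 16.8, 25.9 and 16.9 CPM in co-culture macrophages (log2 fold change -5.30, adjusted p = 0.000208, edgeR). Among retinoic acid synthesis genes, Aldh1a2, a retinaldehyde dehydrogenase gene, rose against macrophages alone with BMS493 (log2 fold change 3.25, adjusted p = 0.0119, edgeR), with ATRA (4.50) and in co-culture (3.42). Aldh1a2 lay at 175 to 410 CPM in PDPN+ libraries, and the part of stromal transcripts in its macrophage values was not tested.

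The macrophage genes whose pattern was most like Gata6 over the 18 libraries were Sap30, Phf11a, Nrip1, Selp, Hcfc2, Itga6, Rarb and P2rx1. They were ranked by Pearson r of log2(CPM + 1) among 8949 genes, and r ran from 0.905 for Sap30 to 0.886 for P2rx1. These values describe libraries that share groups, batches and scaling, and they carry no test. Without the 2 libraries farthest from the Gata6 median, r for these 8 genes lay between 0.851 and 0.897. The likeness was weaker among libraries within a group, where r of the deviations from group means ran from -0.19 for Hcfc2 to 0.41 for Sap30 and 0.58 for Itga6. P2rx1, an ATP-gated ion channel gene, had 95.9, 230 and 197 CPM with ATRA, 0.219, 1.31 and 0.400 CPM with BMS493, 8.88, 2.33 and 1.79 CPM alone and 34.5, 34.1 and 41.6 CPM ex vivo. Its order of groups differed from that of Gata6, since P2rx1 averaged 59.0 ± 12.2 CPM in co-culture and 42.3 ± 29.6 CPM in transwell macrophages, both above its ex vivo mean of 36.7 ± 4.18 CPM. Itga6, the integrin alpha 6 gene, had 621, 747 and 926 CPM with ATRA, 124, 225 and 127 CPM with BMS493, 262, 138 and 189 CPM alone and 387, 668 and 1439 CPM ex vivo. Itga6 was lowest in batch 1 in the ATRA, BMS493 and ex vivo groups, but highest in batch 1 alone and lowest in batch 3 in co-culture and transwell culture, whereas Gata6 was lowest in batch 1 in all 6 groups. Sap30, which encodes a subunit of the Sin3 histone deacetylase complex, moved in a narrow range of 31.1 to 96.7 CPM.

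**Figure D4:**
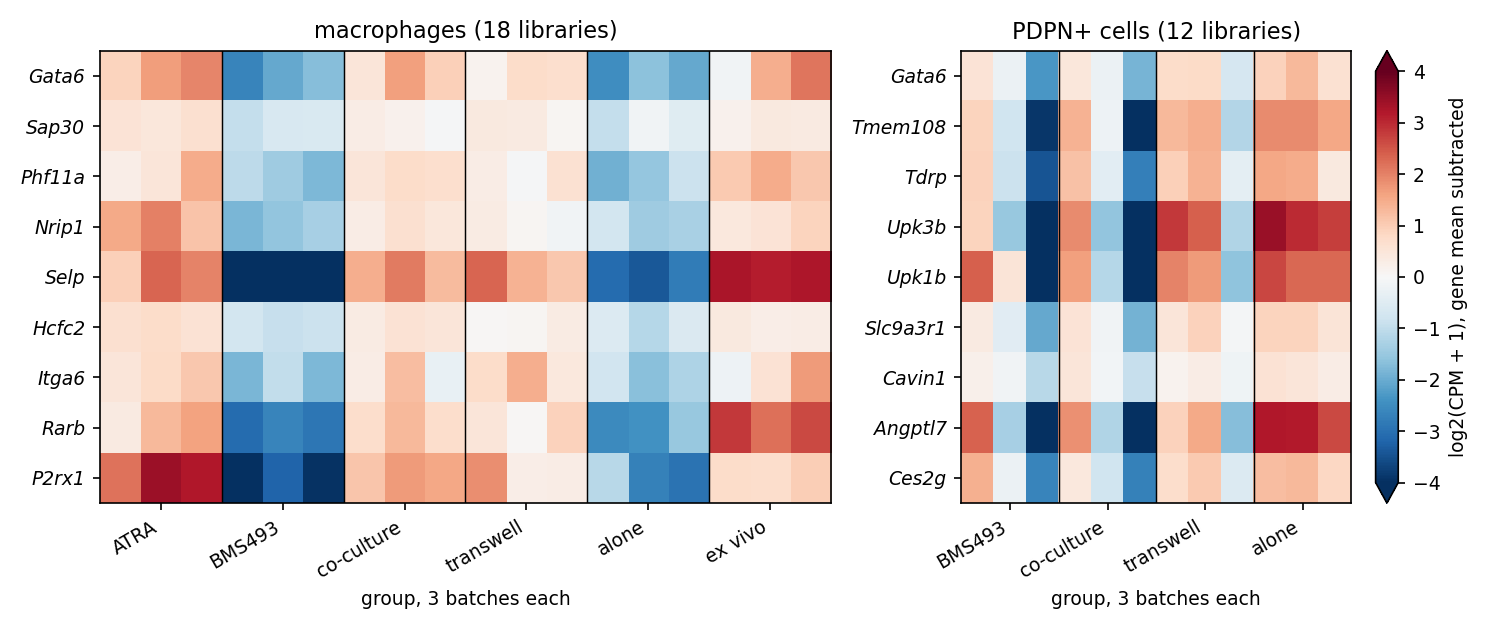
Level of Gata6 and of the 8 genes most like it in macrophages (left) and in PDPN+ cells (right), as log2(CPM + 1) minus the mean of the gene over the libraries shown, with 3 batches in each group. Colours end at -4 and 4. In macrophages the BMS493 and alone groups are low in all batches, while in PDPN+ cells the batch 3 libraries of the BMS493, co-culture and transwell groups are the lowest of their groups.

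Rarb and Cyp26a1 move with retinoic acid receptor activity in many cells. Both genes changed in the macrophage comparisons in which Gata6 changed with culture, ATRA, co-culture and BMS493, but other listed genes such as Nrip1 changed too. The 2 promoters shown are the only ones of the list in which the element described below was found. The promoter of Gata6 was not examined by itself. RefSeq promoter windows (250 bases before to 50 after the start, GRCm38.p6) were available for 11 of 17 genes of the retinoic acid response list. The element searched was any of AGGTCA or GGGTCA or AGTTCA or GGTTCA, followed by NNNNN and then by any of these again, on both strands. It occurred in 32 of 32851 windows (0.0974%), and in 2 of the 11 genes, Rarb and Cyp26a1. The first share is by window and the second by gene, and the 11 genes hold 21 windows. Shown 5′ to 3′ on the strand of each gene are the 100 bases before the start, with the element in capitals. Rarb lies on the minus strand at chr14:16575477-16575576 and Cyp26a1 on the plus strand at chr19:37697708-37697807.
Rarb: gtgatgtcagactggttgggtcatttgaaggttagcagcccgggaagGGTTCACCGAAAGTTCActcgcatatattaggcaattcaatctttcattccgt
Cyp26a1: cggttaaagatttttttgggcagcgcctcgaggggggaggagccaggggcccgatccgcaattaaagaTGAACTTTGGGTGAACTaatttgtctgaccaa
The element begins 53 bases before the start in Rarb and 32 bases before it in Cyp26a1, where it reads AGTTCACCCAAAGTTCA on the opposite strand. Both elements share the part AGTTCA, and neither overlaps a GATA match.

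GATA sites were searched as AGATAA or TGATAA or AGATAG or TGATAG on both strands, and 29.8% of all windows hold one. Of the genes most like Gata6, 7 of 8 had a window in macrophages and 6 of 8 in PDPN+ cells. A GATA match occurred in 2 of 7 (P2rx1 and Hcfc2) and in 2 of 6 (Upk3b and Ces2g), shares near the background. These shares are by gene, over 9 and 8 windows, whereas the background is by window. A match describes letters in these windows and shows no binding.

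In PDPN+ cells no Gata6 difference was called. Co-culture over cells alone gave a log2 fold change of -1.25 (SE 0.72, 95% interval -2.83 to 0.33, adjusted p = 0.545, edgeR). The 3 co-culture libraries lay below the 3 libraries cultured alone, and log2 ratios within batches were -0.46, -1.57 and -2.53. In this comparison edgeR called 0 genes (0%), 1796 genes had an unadjusted p under 0.05 and DESeq2 called 346. Transwell over alone gave -0.49 (95% interval -2.05 to 1.07, adjusted p = 1, edgeR), with ratios of -0.16, -0.53 and -1.30. There edgeR called 0 genes (0%), 426 had an unadjusted p under 0.05 and DESeq2 called 16. BMS493 over alone gave -1.24 (SE 0.72, 95% interval -2.82 to 0.34, adjusted p = 0.537, edgeR; 0.24% of genes called). Its libraries also lay below those cultured alone, with ratios of -0.38, -1.54 and -3.03.

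BMS493 over co-culture gave a Gata6 log2 fold change of 0.01 in PDPN+ cells (95% interval -1.55 to 1.57, adjusted p = 1, edgeR; 0.0157% of genes called). That interval still allows a difference of more than 2-fold in either direction. Log2 ratios within batches were 0.07, 0.03 and -0.50. BMS493 over transwell gave -0.75 (95% interval -2.32 to 0.82, adjusted p = 0.758; 0.152% called) and co-culture over transwell gave -0.76 (95% interval -2.33 to 0.81, adjusted p = 0.822; 0.00523% called), both in edgeR.

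A few retinoic acid response genes were called lower with BMS493 in the same PDPN+ libraries. Dhrs3, which encodes a retinaldehyde reductase, had 2.78, 8.40 and 7.07 CPM with BMS493, against 233, 200 and 75.8 CPM in co-culture PDPN+ cells (log2 fold change -4.82, SE 0.54, adjusted p = 0.0297, edgeR). Rarb had 0.106, 0 and 0.641 CPM with BMS493, against 20.9, 18.1 and 5.24 CPM in PDPN+ cells alone (log2 fold change -5.81, adjusted p = 0.049, edgeR). These were 1 of 15 listed response genes against co-culture, and Rarb with Dhrs3, 2 of 15, against cells alone, with 0 rising in either. With the batch as a block both calls quoted here were lost (adjusted p = 0.0854 for Dhrs3 against co-culture and 0.05005 for Rarb against cells alone, edgeR), and 0 of 15 response genes were called against co-culture. For both genes the groups quoted did not overlap. Between BMS493 and co-culture, the groups quoted for Dhrs3, Gata6 was nearly equal in batches 1 and 2. In batch 3 it was 14.7 CPM with BMS493 and 20.8 CPM in co-culture. Between BMS493 and cells alone, the groups quoted for Rarb, the Gata6 libraries did not overlap either (log2 fold change -1.24, not called).

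The PDPN+ libraries differed in their mesothelial transcripts, and Gata6 went with them. The mesothelial list of 13 genes summed to 1826, 504 and 234 CPM with BMS493, 1639, 391 and 178 CPM in co-culture, 2085, 1959 and 406 CPM in transwell culture and 3624, 2941 and 2086 CPM alone, for batches 1, 2 and 3. Over the 12 libraries the log2 values of Gata6 and of this sum had a Pearson r of 0.935 and a Spearman rho of 0.951 (r 0.953 without the 2 libraries farthest from the Gata6 median). The list includes Pdpn, on which the cells were sorted. Pdpn had 91.3 to 215 CPM in PDPN+ libraries, a large part of the lowest sums. In cells alone of batch 1, Upk3b and Upk1b, both named below among the genes most like Gata6, had 1109 and 853 CPM. The cells sorted numbered 25000, 22909 and 8229 with BMS493, 25000, 3730 and 2148 in co-culture, 25000, 25000 and 19265 in transwell culture and 25000 in each library alone. The libraries with the fewest sorted cells in each treated group were also those with the least Gata6, and the part of sort yield or of mesothelial cells in the result was not tested.

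**Figure D5:**
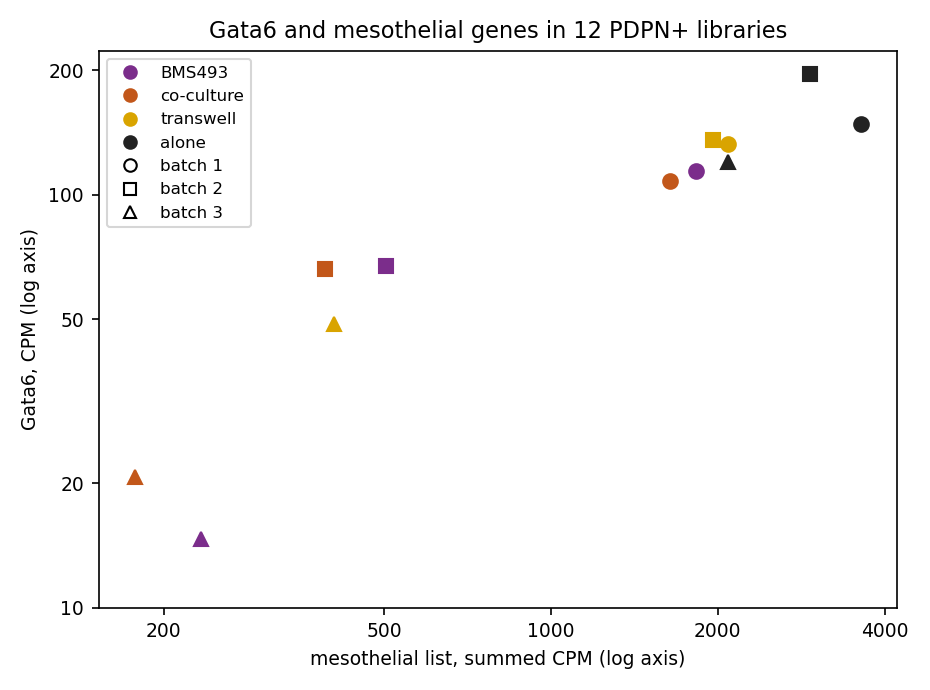
Gata6 against the summed level of 13 mesothelial genes in the 12 PDPN+ libraries (both in CPM on log axes), with colour for the group and shape for the batch. Libraries of the co-culture and BMS493 groups in batches 2 and 3, and the transwell library of batch 3, lie at the lower left. All of these have 67.2 CPM of Gata6 or less.

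The genes most like Gata6 over the 12 PDPN+ libraries were Tmem108, Tdrp, Upk3b, Upk1b, Slc9a3r1, Cavin1, Angptl7 and Ces2g, with r from 0.982 to 0.970 among 9240 genes ranked. None of them is among the 8 of macrophages, but sets this small out of so many genes would seldom overlap in any case. Here the likeness also held among libraries within a group, since r of the deviations from group means was 0.964 to 0.980. Upk3b, a uroplakin gene used as a mesothelial marker, had 188, 34.2 and 0.270 CPM with BMS493, 372, 32.6 and 0.0714 CPM in co-culture and 1109, 800 and 682 CPM alone. Angptl7, a gene of a secreted angiopoietin-like protein, had 344, 25.3 and 0.337 CPM with BMS493, 236, 28.0 and 0.214 CPM in co-culture and 619, 597 and 417 CPM alone. Upk3b thus covered a far wider range than Gata6, and where Upk3b was nearly absent Gata6 was still at 14.7 and 20.8 CPM.

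Among the other mesothelial genes, Wt1, a zinc finger factor gene, had r = 0.908 with Gata6, and Pdpn, on which the cells were sorted, had r = 0.136. Aldh1a1, a retinaldehyde dehydrogenase gene, had r = 0.968, with 139, 11.5 and 0.911 CPM with BMS493 and 301, 216 and 192 CPM alone. Its relative Aldh1a2 had r = 0.380, with 360, 235 and 175 CPM with BMS493 and 264, 260 and 180 CPM alone. The 2 enzymes of retinoic acid synthesis thus differed in how far they followed Gata6. Msln and Krt19, also on the mesothelial list, stayed at 17.7 CPM or less in each PDPN+ library.

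Among Gata1 to Gata6, Gata6 had the highest deposited RPKM in every library except the PDPN+ BMS493 library of batch 3. There Gata2, a factor of blood cell progenitors, had 6.58 RPKM and Gata6 4.53 RPKM. In the PDPN+ co-culture library of batch 3 they were close, with 6.0015 RPKM of Gata2 and 6.67 RPKM of Gata6. In PDPN+ cells alone Gata6 averaged 49.2 RPKM, Gata5 9.99 ± 2.20, Gata2 3.22 ± 1.27, Gata3 1.09 ± 0.436, Gata4 0.674 ± 0.587 and Gata1 0.0267 ± 0.0378 RPKM. Gata5 had 1.91, 0.619 and 0.101 RPKM in PDPN+ cells with BMS493, 7.42, 1.97 and 0.246 RPKM in co-culture and 9.41, 12.4 and 8.15 RPKM alone, so that its order of batches in these 3 groups was that of Gata6. Zfpm2, the gene of the cofactor FOG2, averaged 11.8 ± 6.92 RPKM in PDPN+ cells alone and 0.00192 ± 0.00332 RPKM in ex vivo macrophages. In macrophages none of Gata1 to Gata5 passed 1.03 RPKM in any library, a level that Gata2 reached in transwell culture. Trps1, on the list of the family and its cofactors, averaged more RPKM than Gata6 in macrophages alone and with BMS493, and less in the other macrophage groups. Of 13 tested genes of the family and its cofactors, only Gata6 was called with ATRA (0.326% of all genes called) and in co-culture (0.698%), both against alone. The same held in BMS493 against co-culture (0.85%) and in culture alone against ex vivo (17.8%). Against ex vivo, 2 of the 13 rose with ATRA and 2 in co-culture (14.9% of genes called in each), where Gata6 was not called. With BMS493 against ex vivo 2 rose and only Gata6 fell (21.3%), and in transwell culture 1 rose (12.9%).

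Between the cell types cultured alone, Gata6 was higher in PDPN+ cells, with a log2 fold change over macrophages of 4.78 (SE 0.73, 95% interval 3.26 to 6.29, adjusted p = 1.68e-05, edgeR), or 27.4-fold, where 38.9% of 20987 genes were called. Against ex vivo macrophages the value was 1.14 (95% interval -0.17 to 2.44, adjusted p = 0.161, edgeR; 38.5% of genes called). PDPN+ cells alone lay above all ex vivo macrophage libraries, and the log2 ratios within batches were 2.72, 1.47 and 0.08. Without batch 3 the value was 1.74 with an adjusted p of 0.0273, which is past the threshold. After co-culture, PDPN+ cells over macrophages gave 0.22 (95% interval -1.07 to 1.50, adjusted p = 0.829, edgeR; 32.4% of genes called), and the batches went both ways at 1.59, -0.29 and -1.24.

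The effect of co-culture on Gata6 differed between the cell types. Co-culture over alone in macrophages, minus the same in PDPN+ cells, was 4.56 on the log2 scale (SE 0.93, 95% interval 2.65 to 6.47, adjusted p = 0.0122, edgeR; 0.986% of genes called). It stayed past the threshold in each fit without 1 library (adjusted p from 0.00971 to 0.0445). For BMS493 over co-culture the difference between cell types was -3.42 (SE 0.91, 95% interval -5.30 to -1.54, unadjusted p = 0.000993), with an adjusted p of 0.453 in edgeR and 0.0385 in DESeq2. Here 0.00953% of genes were called in edgeR. Both differences use the same co-culture libraries.

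In the reverse direction, macrophage transcripts in PDPN+ libraries were few. The median excess of 16 macrophage genes over PDPN+ cells alone was 1.06% to 2.17% of the macrophage level with BMS493 and 1.19% to 1.48% in co-culture. At these shares macrophages would give at most 0.963 CPM of the Gata6 measured in PDPN+ co-culture libraries.

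An antisense transcript, 1010001N08Rik, runs from 10987944 to 11052567 on the minus strand of chromosome 18 and overlaps the start of Gata6. Its counts were 2.99% to 13.4% of those of Gata6 in PDPN+ libraries and 0% to 12.9% in macrophage libraries. Whether strand was used in the counting is not given in the sources used here. Reads of the overlap can therefore not be told apart. The antisense gene 1010001N08Rik fell in macrophages alone against ex vivo (log2 fold change -2.84, adjusted p = 0.0249, edgeR). Like Gata6, it was also called in ATRA over BMS493 macrophages (3.87, adjusted p = 0.0209) and in BMS493 over ex vivo macrophages (-3.69, 0.00723), both in edgeR. PDPN+ cells alone over macrophages alone gave a further call (5.60, adjusted p = 0.000338, edgeR). It was not called in the remaining comparisons in which Gata6 was, namely ATRA over alone (3.03, adjusted p = 0.184), co-culture over alone (1.93, 0.326), BMS493 over co-culture (-2.77, 0.210), BMS493 over transwell macrophages (-2.18, 0.283) and the difference between cell types in co-culture over alone (3.66, 0.262), all in edgeR.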

How the data were processed

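PolyA RNA of sorted cells was sequenced, and, per the file headers, the authors deposited for each library the count of uniquely aligning reads per gene and a size-factor-adjusted RPKM. The submitters' processing notes name GSNAP and GRCm38; which aligner version, annotation, strand setting and filters on reads were used is not given in the sources used here. Symbols and coordinates come from a GENCODE annotation of GRCm38. The RPKM were used only for levels between genes.

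Counts were scaled by TMM to CPM and tested with the quasi-likelihood test of edgeR 4.0.16 (R 4.3.3, limma 3.58.1), with edgeR's default low count filter and group as the only factor, over 17774 genes in macrophages, 19134 in PDPN+ cells and 20987 in a joint fit for the 5 comparisons across cell types. P-values were adjusted by Benjamini-Hochberg over all genes of a comparison. In all 26 comparisons were made. The fit was tested on simulated data. No replicate pair was a copy (lowest chi-square per degree of freedom 42.7).

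The batch number in the labels (336, 339 and 340, called batch 1, 2 and 3) is shared by same-numbered replicates, so the numbers pair libraries by label. Deviations from group means had a median r of 0.349 between same-numbered macrophage libraries and 0.224 between PDPN+ libraries.

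Gata6, the gene lists and the tests were chosen with earlier results of these data known. Named genes are Gata6, the 8 genes most like it in each cell type among genes whose highest group mean reaches 10 CPM, the called list members with the largest change, and members of the GATA, retinoic acid, resident factor and mesothelial lists. The stromal share is the median over 16 fibroblast genes of the excess over macrophages alone, as a percent of the PDPN+ library of the same batch. It need not equal the share for Gata6. Alternatives were RLE scaling, library totals, DESeq2 1.42.0, no count filter, the batch block, other sets of libraries in the fit, no batch 3, each library left out, and, chosen after seeing the data, the block for the gene lists, antisense counts added to Gata6 and Fn1 left out of the fibroblast sums.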

Additional observations from a re-analysis of the deposited data

Results flagged for a closer look

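The effect of co-culture on Gata6 differed between cell types by a test of the difference itself. Co-culture over alone in macrophages, minus co-culture over alone in PDPN+ cells, was 4.56 on the log2 scale (95% interval 2.65 to 6.47, adjusted p = 0.0122, edgeR), with Gata6 higher in co-culture in 3 of 3 batches of macrophages and lower in 3 of 3 batches of PDPN+ cells. PDPN+ co-culture libraries 2 and 3 hold 3730 and 2148 sorted cells, and the part of sort yield or of mesothelial cells in this difference was not tested. Groups of 3 libraries are too small for a check of single outlying libraries.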

How the results depend on the processing

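Over 26 comparisons, 368 of 397 alternative fits kept the direction of Gata6 and its side of an adjusted p of 0.05. With the replicate block, which pairs libraries by batch, Gata6 in transwell macrophages over macrophages alone was called (2.74), PDPN+ BMS493 over co-culture turned to -0.080, and no other Gata6 call changed. DESeq2 called the transwell comparison (2.72) and the cell type difference of BMS493 over co-culture (-3.46). With only the libraries compared in the fit, ATRA (3.75) and co-culture (3.28) over macrophages alone lost their call. Without batch 3, PDPN+ cells alone over ex vivo macrophages passed the threshold (1.74) and co-culture over ex vivo macrophages turned to 0.23. Library totals turned ATRA over ex vivo to -0.23, and a joint fit of 30 libraries (-0.0013) and added antisense counts (-0.0052) turned PDPN+ BMS493 over co-culture.

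Leaving out 1 library gave 2.91 to 3.61 for co-culture over alone, -3.72 to -3.06 for BMS493 over co-culture and -3.16 to -2.60 for BMS493 over transwell macrophages, each with calls lost. Signs turned in uncalled comparisons: BMS493 over alone (-0.46 to 0.17), ATRA (-0.28 to 0.69) and co-culture (-0.77 to 0.20) over ex vivo, PDPN+ BMS493 over co-culture (-0.66 to 0.61) and PDPN+ over macrophage co-culture (-0.50 to 0.60). The cause was not tested.

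Counts of called genes moved more than Gata6. The block gave more in macrophages: 143 against 58 genes for ATRA, 429 against 124 for co-culture, 23 against 5 for transwell and 412 against 131 for BMS493, each over alone, and 320 against 151 for BMS493 over co-culture, 510 against 230 for BMS493 over transwell, 33 against 7 for co-culture over transwell, 35 against 10 for co-culture over ATRA, 1459 against 712 for ATRA over BMS493 and 3534 against 2300 for transwell over ex vivo. It gave 377 against 207 and 7 against 2 for the differences between cell types in co-culture over alone and in BMS493 over co-culture. It gave fewer in PDPN+ cells: 5 against 29 for BMS493 over transwell, 0 against 3 for BMS493 over co-culture and 0 against 1 for co-culture over transwell. DESeq2 gave 330, 690 and 264 for ATRA, co-culture and transwell over alone and 442 for BMS493 over co-culture. The stromal share was 2.16% in co-culture macrophages by the median and 1.91% as a ratio of sums without Fn1; with Fn1 the ratio was 19.3%. Of each set of 8 genes most like Gata6, 7 were shared with a pseudocount of 0.25. At 105 to 341 counts in macrophages alone, counting error is small beside the spread between libraries.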
